A study of Mus musculus with 2 samples.

Results

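The HOX cluster genes were read in mouse embryonic fibroblasts (MEFs) with and without *BCL11B*. A gene was included where a probe set of the array was annotated to that gene alone and its symbol was Hoxa, Hoxb, Hoxc or Hoxd followed by a number. This gave 33 genes, on 48 probe sets, out of 18193 genes named on the array. The wild type cells were *BCL11B*+/+ and the knockout cells *BCL11B*-/-, both primary MEFs of C57BL/6 embryos at embryonic day 12.5, used at passage 2. Both cultures had spent 12 h in adipocyte differentiation medium containing pioglitazone (10 μM), insulin (10 μg/ml), dexamethasone (1 μM), methylisobutylxanthine (0.5 mM) and fetal bovine serum (10%). The number and sex of the embryos behind each culture, and the exons deleted in *BCL11B*-/- mice, were not given in the sources used here. One array was hybridized for each genotype, so there was no replicate and no p-value, and every comparison below sets 1 culture against 1 other.

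HOX genes encode homeodomain transcription factors that tell cells where they lie along the body axis. In mammals they sit in 4 clusters, named A to D, and genes with the same paralog number, from 1 to 13, descend from 1 ancestral gene. Low numbers lie at the 3′ end of a cluster and are used toward the head, high numbers lie at the 5′ end and are used toward the tail and in the distal limbs. Fibroblasts keep much of the HOX pattern of the body site they came from when they are grown in culture.

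Values are log2 expression after the robust multi-array average (RMA), and a difference is always *BCL11B*-/- minus *BCL11B*+/+. For a gene with several probe sets the brightest one, by the mean of both arrays, gave its value, and a difference of 1.5-fold (0.58 log2 units) was the rule for calling a gene higher or lower. Genes with a mean under 5 log2 units were left out of the counts, since dim probe sets hold mostly background. As a technical yardstick, the differences shown by probe sets of the same gene scattered with an SD of 0.145 log2 units, pooled across 5543 genes. Of the 24 HOX genes counted below 14 (58.3%) differed by more than this SD, against 38.0% of all genes that passed the same floor. That SD holds no variation between cultures. A level belongs to its own probe set, so levels of different genes are not compared with each other.

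The cultures differed in more than *BCL11B*. *Bcl11b* itself was 2.26- to 2.97-fold lower in *BCL11B*-/- MEFs on its 4 probe sets. All 12 fibroblast markers, such as *Col1a1*, *Pdgfra* and *Prrx1*, had means between 9.21 and 14.01, far above the floor of 5, and *Dcn* (-0.88) and *Thy1* (-0.65) were lower in *BCL11B*-/- MEFs. Of 14 macrophage markers 11 were lower in *BCL11B*-/- MEFs, none was higher, and the log2 of their summed signal went from 12.29 to 11.48. Of 7 chondrocyte markers above the floor 6 were higher and none was lower (summed signal of all 12 listed 11.11 and 12.01). Of 8 mesothelial markers 2 were lower (11.76 and 11.39). Of 6 neural markers above the floor 2 were higher and none was lower, though *Gap43* differed by -0.53 (summed signal of all 12 listed 9.45 and 9.53). For comparison, 1.61% of all genes above the floor were at least 1.5-fold higher and 1.75% lower. Only 3 of 10 skeletal muscle markers passed the floor, and *Myod1*, *Myog*, *Myf5* and *Myf6* did not. *Xist* read 10.80 in *BCL11B*+/+ and 4.80 in *BCL11B*-/- MEFs, a difference of -5.99. The Y-linked *Eif2s3y* read 7.89 and 8.97, *Kdm5d* 6.84 and 7.81 and *Uty* 6.80 and 7.61, differences of 1.08, 0.97 and 0.81. The *BCL11B*+/+ culture thus gave signal for both *Xist* and Y-linked genes. In the *BCL11B*-/- culture Y-linked genes gave signal and *Xist* was below 5. In bulk cultures fewer cells of a type and less RNA per cell cannot be told apart, and the part of these differences in the HOX values was not tested.

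**Figure D1:**
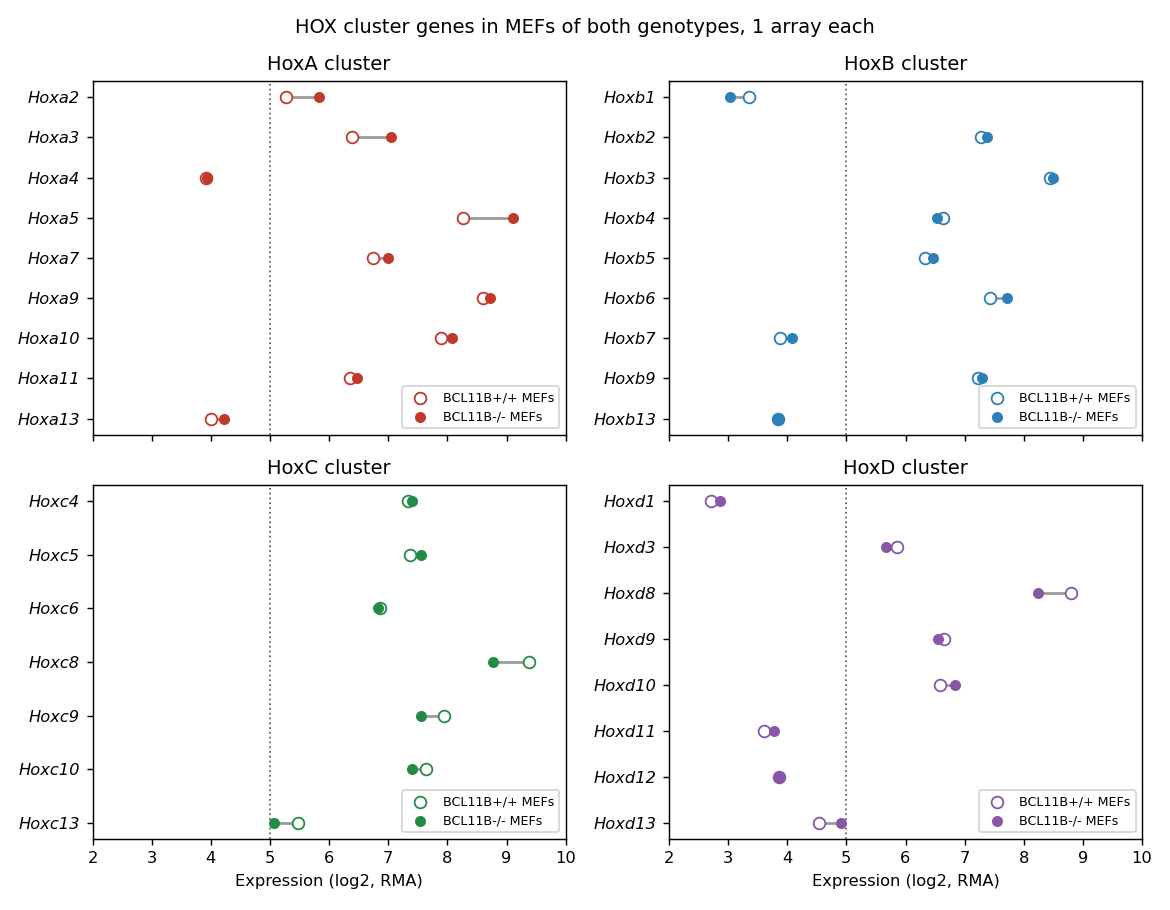
Expression (horizontal axis, log2 after RMA) of the 33 HOX genes (vertical axis, in paralog order) with open circles for *BCL11B*+/+ and filled circles for *BCL11B*-/- MEFs, 1 array per genotype and so no error bars. The dotted line marks the floor of 5. Filled circles lie to the right throughout HoxA, farthest for *Hoxa5* (8.26 and 9.11), and to the left from *Hoxc8* to *Hoxc13*.

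Both directions were found among the HOX genes, and the clusters differed in which prevailed. Of the 33 genes 24 had a mean of at least 5. Of these 24, *Hoxa3* and *Hoxa5* (8.33%) were at least 1.5-fold higher in *BCL11B*-/- MEFs, against 1.61% of the 12331 genes of the array that passed the same floor. *Hoxc8* alone (4.17%) was at least 1.5-fold lower, against 1.75% of those genes. Without the floor the counts over all 33 genes were the same, against 1.23% of 18193 genes higher and 1.34% lower. The median difference was 0.08 for the 24 HOX genes and 0 for the 12331 genes, and their SDs were 0.35 and 0.25. The differences of HOX genes were thus spread more widely than those of all genes, with 5 of the 24 outside the range from -0.48 to 0.50 that held the central 95% of all genes. With so few genes 1 gene moves a share by several percent.

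HoxA had the highest median difference of the clusters, with its 3 largest differences in *Hoxa5*, *Hoxa3* and *Hoxa2*. All 7 of its genes above the floor were above 0 on their brightest probe set, with a median of 0.26. *Hoxa9* and *Hoxa11* (both 0.12) stayed within the SD between probe sets of 0.145. In HoxB 5 of 6 genes were above 0 as well, by less. *Hoxa5*, which patterns the lung and the neck and upper trunk skeleton, read 8.26 in *BCL11B*+/+ and 9.11 in *BCL11B*-/- MEFs. This is a difference of 0.85, or 1.80-fold, and the largest in size of any HOX gene here. Its other probe set, with an _x suffix that marks probes shared between transcripts, read 8.13 and 8.72. This difference of 0.59 just reached 1.5-fold, so both probe sets passed the rule.

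*Hoxa3*, which shapes the thymus and other derivatives of the pharyngeal arches, read 6.38 and 7.04 on its brightest probe set, which is 1.58-fold higher. Its other 3 probe sets differed by 0.14, 0.39 and 0.07. All lay above 0, but only the brightest, which carries an _s suffix for probes that match several transcripts, passed 1.5-fold. The mean over the 4 was 0.31. RefSeq transcripts of *Hoxa3* run across *Hoxa4*, *Hoxa5* and *Hoxa6*, so a *Hoxa3* probe set need not follow 1 promoter. *Hoxa2*, a regulator of the hindbrain and of the middle ear and face, read 5.27 and 5.83 on 1 probe set, a difference of 0.56 that fell just short of the rule at 1.47-fold.

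The other HoxA genes differed less. *Hoxa7*, a gene of the trunk skeleton, read 6.74 in *BCL11B*+/+ MEFs and 0.26 more in *BCL11B*-/- MEFs. *Hoxa9*, also known from blood stem cells, read 8.59 and 8.72, and a dimmer probe set differed by -0.06, so no direction can be given for it. *Hoxa10*, needed in the uterus, differed by 0.19, and *Hoxa11*, a forearm and uterus gene, by 0.12. *Hoxa4*, which lies between *Hoxa3* and *Hoxa5*, and *Hoxa13*, a gene of the digits, were under the floor with 0.02 and 0.21.

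The stretches before the starts of *Hoxa2*, *Hoxa3* and *Hoxa5* are shown because these genes had the highest differences of the family. They are the 250 bases before the first base of the RefSeq transcript in GRCm38.p6, on the gene's own strand. Capitals mark any match to 4 motifs searched on both strands: TATAAA (a core promoter element), TGACCA (bound by the related factor BCL11A), AGGTCA (core site of nuclear receptors) and TGATTNAT (joint site of PBX and HOX proteins). *Hoxa2* lies at chr6:52164832-52165081, minus strand, *Hoxa3* at chr6:52213068-52213317, minus strand, and *Hoxa5* at chr6:52204588-52204837, minus strand.
Hoxa2: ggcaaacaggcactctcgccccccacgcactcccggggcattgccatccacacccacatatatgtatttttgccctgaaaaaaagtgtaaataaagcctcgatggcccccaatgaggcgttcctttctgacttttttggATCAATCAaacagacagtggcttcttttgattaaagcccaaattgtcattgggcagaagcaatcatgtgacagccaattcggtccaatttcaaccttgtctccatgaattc
Hoxa3: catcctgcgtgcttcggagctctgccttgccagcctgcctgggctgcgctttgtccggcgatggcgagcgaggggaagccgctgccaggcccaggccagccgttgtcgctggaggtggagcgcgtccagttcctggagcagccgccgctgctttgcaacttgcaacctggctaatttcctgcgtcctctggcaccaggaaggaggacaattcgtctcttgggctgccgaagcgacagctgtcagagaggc
Hoxa5: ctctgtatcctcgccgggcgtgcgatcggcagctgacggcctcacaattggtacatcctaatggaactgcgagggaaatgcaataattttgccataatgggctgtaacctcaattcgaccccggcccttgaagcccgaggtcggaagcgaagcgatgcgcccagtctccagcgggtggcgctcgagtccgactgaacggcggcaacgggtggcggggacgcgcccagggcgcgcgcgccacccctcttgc
The 3 stretches had little in common at this level. *Hoxa2* held 1 match, to the PBX and HOX site, and *Hoxa3* and *Hoxa5* held none. The GC content was 46.4% for *Hoxa2*, 64.8% for *Hoxa3* and 63.6% for *Hoxa5*, with 6, 18 and 28 CG dinucleotides.

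HoxB differed least. Its 6 genes above the floor lay between -0.09 and 0.28, with a median of 0.08, and none reached 1.5-fold. *Hoxb6*, a trunk gene, was the highest and read 7.43 in *BCL11B*+/+ and 7.71 in *BCL11B*-/- MEFs. *Hoxb5* read 6.33 and 6.46, and *Hoxb2*, a hindbrain gene, 7.28 and 7.38. *Hoxb9*, which helps pattern the rib cage, read 7.23 and 7.29. Of these only *Hoxb6* differed by more than the SD between probe sets.

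*Hoxb3* and *Hoxb4* had 2 probe sets each, and in both genes the probe sets fell on either side of 0. For *Hoxb3* they differed by 0.04 and -0.03. For *Hoxb4*, studied for its action on blood stem cells, they differed by -0.09 and 0.12. No direction can therefore be given for either gene. Under the floor were *Hoxb1*, a gene of the early hindbrain, with -0.31, *Hoxb7* with 0.21, and the prostate gene *Hoxb13*, whose value was the same on both arrays.

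HoxC was the cluster that was lower in *BCL11B*-/- MEFs, with its larger differences from *Hoxc8* onward. All 7 measured genes passed the floor, 5 were below 0, and the median was -0.25. *Hoxc8*, which acts in the thoracic spine and is known to restrain brown adipocyte formation, read 9.38 in *BCL11B*+/+ and 8.77 in *BCL11B*-/- MEFs. The difference of -0.61 is 1.53-fold, and it rests on 1 probe set. *Hoxc9*, a gene of the thoracic spinal cord, read 7.94 and 7.55 and was 1.31-fold lower. *Hoxc13*, needed for hair and nails, read 5.47 and 5.07, which is 1.32-fold lower and close to the floor. *Hoxc10*, a gene of the lumbar region and of subcutaneous fat, read 7.64 and 7.39, 1.19-fold lower.

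The neighbours toward the 3′ end differed less. *Hoxc4* differed by 0.06, *Hoxc5* by 0.18 and *Hoxc6* by -0.05 on their brightest probe sets. The 3 probe sets of *Hoxc5* lay between 0.12 and 0.38, all above 0. Those of *Hoxc6* lay between -0.14 and -0.05, all below 0. Both ranges are small beside the difference of *Hoxc8*, the next gene of the cluster on this array.

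HoxD held 1 gene with a sizeable difference. *Hoxd8*, a trunk gene of the same paralog group as *Hoxc8*, read 8.79 in *BCL11B*+/+ and 8.25 in *BCL11B*-/- MEFs. The difference of -0.55 is 1.46-fold and fell short of the rule. A second probe set read 8.01 and 7.39 with a difference of -0.63, and the mean of both, -0.59, reached 1.5-fold. Both probe sets thus stood on the same side and close to the threshold. *Hoxd3* (-0.19) and *Hoxd9* (-0.11) were also below 0, while *Hoxd10*, which acts in the hindlimb and lumbar region, read 6.58 and 6.84, a difference of 0.26.

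The remaining 4 HoxD genes were under the floor. *Hoxd1* and *Hoxd11* each differed by 0.16, and *Hoxd12* was equal on both arrays. *Hoxd13*, a gene of the digits, had 2 dim probe sets that differed by 0.37 and -0.15. The median of HoxD was therefore -0.15 with the 4 genes above the floor and 0.08 with all 8, so no direction can be given for the cluster.

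The stretch before *Hoxd8* is shown for comparison with HoxA, since *Hoxd8* had the lowest difference of the HOX genes with a RefSeq window at hand. *Hoxc8*, the lowest of all, was not among those genes. It lies at chr2:74704365-74704614, plus strand, in GRCm38.p6, and capitals mark matches to the same 4 motifs.
Hoxd8: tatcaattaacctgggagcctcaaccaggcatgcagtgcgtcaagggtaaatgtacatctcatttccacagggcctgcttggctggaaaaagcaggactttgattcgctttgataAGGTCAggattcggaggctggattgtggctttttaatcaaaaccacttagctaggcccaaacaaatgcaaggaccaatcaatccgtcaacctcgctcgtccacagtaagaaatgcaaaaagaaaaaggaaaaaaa
It held 1 match, to the nuclear receptor core site AGGTCA, and its GC content was 44.4% with 6 CG dinucleotides. RefSeq windows of 300 bases, from 250 before the start to 50 after it, were at hand for 19 of the 33 genes, 21 windows in all. AGGTCA was found in 6 of the 21 (28.6%), which include those of *Hoxa5* and *Hoxd8*, and in 16.3% of 32851 windows of all genes. The match of *Hoxa5* lies outside the 250 bases printed above. TGACCA was in 3 (14.3%, against 13.6%), TATAAA in 2 (9.52%, against 13.6%) and TGATTNAT in 2 (9.52%, against 3.22%). The HOX windows had a median GC content of 58% and 15 CG dinucleotides, against 52.7% and 7. With 21 windows such shares are descriptions only, and a match of letters is not a bound site.

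**Figure D2:**
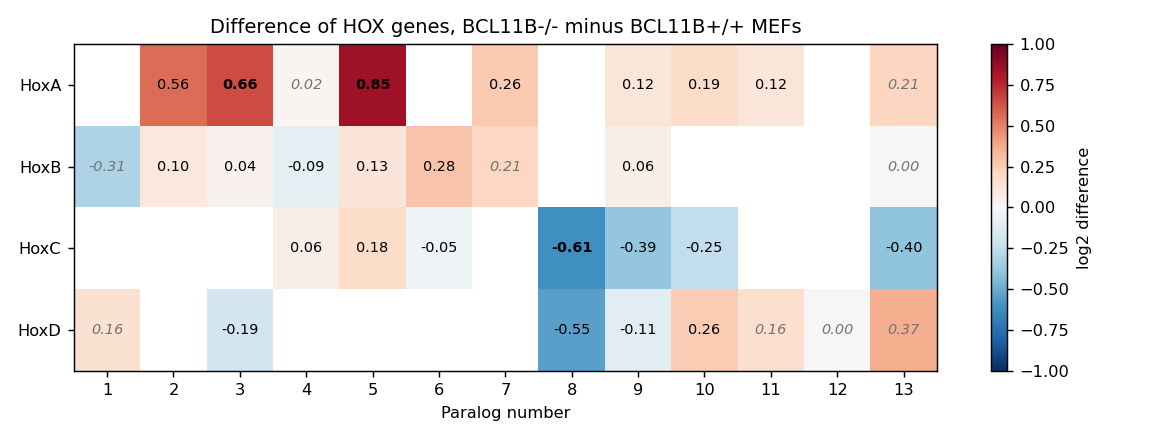
Log2 difference, *BCL11B*-/- minus *BCL11B*+/+ MEFs, of each HOX gene by cluster (rows) and paralog number (columns), colored from blue (lower) to red (higher), with 1 array per genotype. Bold values reached 1.5-fold, grey italic values are genes with a mean under 5, and empty fields were not analysed here. Red fills the left of the HoxA row and blue the fields from *Hoxc8* to *Hoxc13* and *Hoxd8*.

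Paralogs rarely shared both the direction and the size of their differences. In paralog group 8 both measured genes were lower, *Hoxc8* with -0.61 and *Hoxd8* with -0.55. A probe set shared by *Hoxb8* and *Hoxb7* read 6.54 and 6.68. Its difference of 0.13 is within the SD between probe sets of 0.145, so it gives no direction for *Hoxb8*. In group 5 all were above 0 but of unequal size, as *Hoxa5* differed by 0.85, *Hoxb5* by 0.13 and *Hoxc5* by 0.18. In group 3 *Hoxa3* differed by 0.66, *Hoxb3* by 0.04 and *Hoxd3* by -0.19. Group 9, measured in every cluster, ran from -0.39 for *Hoxc9* to 0.12 for *Hoxa9*.

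HoxA stood above HoxC at each of the 3 paralog numbers where both passed the floor. The gap was 0.67 for group 5, 0.51 for group 9 and 0.43 for group 10. Cut by position, genes 1 to 4 had a median of 0.06, genes 5 to 8 of 0.15 and genes 9 to 13 of 0.06, so the medians along the axis lay close together. The correlation of the difference with the paralog number was -0.82 over the 7 genes of HoxA, -0.71 over the 7 of HoxC, 0.20 over the 6 of HoxB, 0.34 over the 4 of HoxD and -0.42 over all 24. The sign was thus not the same in every cluster. These are correlations across genes read on the same pair of arrays, and neighbouring genes are not independent.

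The differences of neighbouring genes of a cluster were closer to each other than those of paralogs. The median gap between the differences of a gene and the next measured gene of its cluster was 0.18 over 20 pairs. Over all 63 pairs within a cluster, those 20 included, it was 0.24, and pairs that were not neighbours were not taken alone. It was 0.33 over 19 pairs with the same paralog number in different clusters, and 0.37 over 194 pairs that shared neither. Overlapping transcripts may be read by probe sets of neighbours, since *Hoxb3* runs across *Hoxb4*, *Hoxd3* across *Hoxd4*, and *Hoxd10* overlaps *Hoxd11* in RefSeq.

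**Figure D3:**
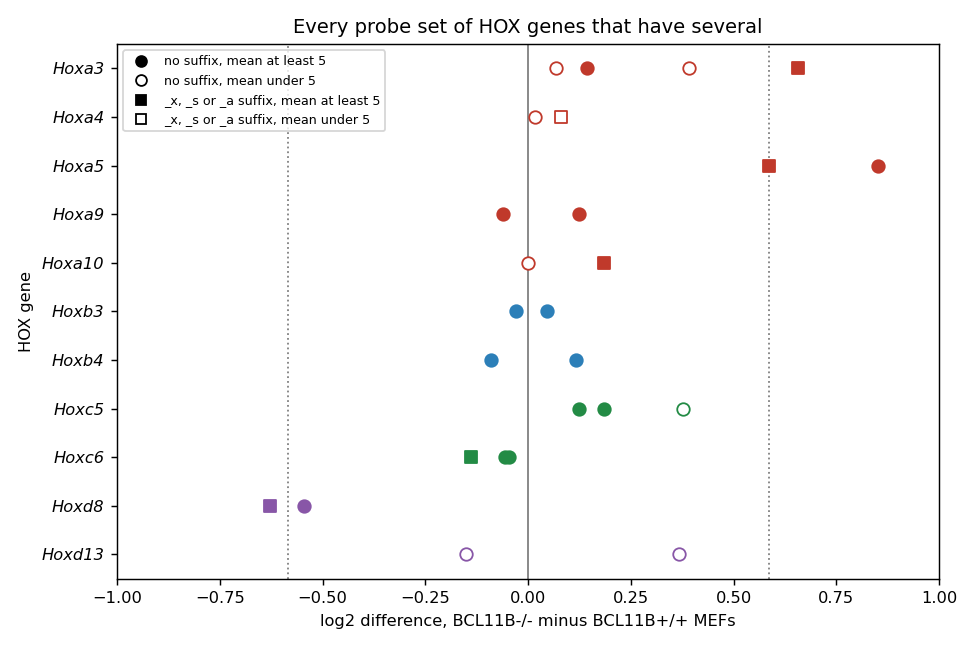
Log2 difference, *BCL11B*-/- minus *BCL11B*+/+ MEFs (horizontal axis), of every probe set of the 11 HOX genes that have several (vertical axis), with 1 array per genotype. Squares are probe sets with a suffix that marks probes shared between transcripts, open symbols have a mean under 5, and dotted lines mark 1.5-fold. Both probe sets of *Hoxa5* and of *Hoxd8* lie together near or past the lines, those of *Hoxa3* run from 0.07 to 0.66, and those of *Hoxa9*, *Hoxb3*, *Hoxb4* and *Hoxd13* lie on both sides of 0.

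The study ranked genes by the weighted average difference, which multiplies the difference by the relative expression level, and took the 50 highest and the 50 lowest. By this score *Hoxa5* was the only HOX gene among the 100, at rank 46 from the top. *Hoxc8* ranked 150 and *Hoxd8* 227 from the bottom, and *Hoxa3* ranked 287 from the top. By the plain difference *Hoxa5* ranked 96 and no HOX gene was among the 100.

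HOX proteins bind DNA together with cofactors of the TALE homeodomain class. Of 9 cofactor genes above the floor none was 1.5-fold higher or lower, against 1.61% and 1.75% of all genes, and the median was 0.04. A count of 0 among so few genes is near those shares and says nothing particular about the cofactors. *Pknox2* read 6.10 in *BCL11B*+/+ and 6.54 in *BCL11B*-/- MEFs, a difference of 0.44, but a second probe set differed by -0.18. *Pbx3*, a partner of many HOX proteins, read 9.57 and 9.90, and its 2 probe sets differed by 0.33 and 0.39. *Meis2* differed by 0.17, with 4 probe sets between 0.17 and 0.52, and the lowest were *Pknox1* with -0.12, *Meis1* with -0.04 and *Tgif1* with -0.03. The 3 probe sets of *Pknox1* lay between -0.49 and -0.12.

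Retinoic acid, made from vitamin A, switches on HOX genes from the 3′ end of the clusters in embryos. Of 12 genes of its pathway above the floor, 1 was higher (8.33%, against 1.61% of all genes) and 1 lower (8.33%, against 1.75%). *Cyp26b1*, which encodes an enzyme that breaks retinoic acid down, read 7.80 in *BCL11B*+/+ and 6.58 in *BCL11B*-/- MEFs and was 2.34-fold lower. *Dhrs3*, a retinaldehyde reductase gene that retinoic acid itself induces, read 7.87 and 8.88 and was 2.02-fold higher. Each rests on 1 probe set. *Crabp2*, which carries retinoic acid to its receptors, read 8.60 and 9.15, 1.47-fold higher.

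Genes for making retinoic acid and for its receptors lay on both sides of 0. *Aldh1a2*, the main synthetic enzyme of the embryo, read 6.74 and 6.30, which is 1.36-fold lower. Among the receptors *Rarg* differed by 0.25, with a second probe set at -0.18, *Rara* by 0.16 and *Rxra* by -0.18. The carrier gene *Rbp4* differed by -0.25, and the median of the 12 genes was -0.01. With only probe sets that carry no suffix that median was -0.21. Whether retinoic acid had a part in the HOX differences was not tested.

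Polycomb proteins keep unused HOX genes silent, and trithorax proteins keep used ones active. Of 26 Polycomb genes above the floor none reached 1.5-fold in either direction, near the shares of 1.61% and 1.75% of all genes, with differences between -0.29 for *Pcgf5* and 0.27 for *Pcgf1* and a median of 0. *Pcgf1* read 4.91 and 5.18, close to the floor, and a second probe set of *Pcgf5* lay at 0.14. *Ezh2*, the methyltransferase of the complex, differed by 0.22, *Suz12* by -0.10 and *Bmi1* by -0.10. *Eed* differed by 0.07, so these core subunits were all under 1.2-fold apart.

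None of 15 trithorax and demethylase genes reached 1.5-fold on the brightest probe set, again near the shares of all genes, and their median was -0.02. *Kmt2c*, another methyltransferase gene, differed by -0.07, but its 4 probe sets lay between -0.75 and -0.06. *Kmt2a*, the methyltransferase best known for keeping HOX genes active, differed by 0.11. *Kdm6a*, a demethylase that removes the Polycomb mark, was the lowest and read 8.42 and 7.99, a difference of -0.43, with 4 probe sets between -0.50 and 0.01. It is X-linked and escapes X inactivation. *Xist* was lower as well (-5.99), and its Y-linked relative *Uty* was higher (0.81), and the part of the sex-linked differences in that of *Kdm6a* was not tested. Of other known regulators of HOX genes the 10 above the floor had a median of 0.02, from -0.32 for *Egr2*, a hindbrain factor, to 0.18 for *Smad3*. A second probe set of *Egr2* differed by -0.73, past 1.5-fold, and the 3 of *Smad3* lay between -0.20 and 0.18.

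Genes beside the clusters were read too. Of 16 such genes above the floor none reached 1.5-fold, near the shares of 1.61% and 1.75% of all genes, and their median over all clusters was -0.02. *Skap2*, next to the 3′ end of HoxA, was the highest with 0.35, at 8.18 and 8.53. Its 3 probe sets lay between 0.12 and 0.35. *Tax1bp1*, farther out on the 5′ side of HoxA, was the lowest with -0.29, but its probe sets lay between -0.76 and 0.24. *Mtx2* beside HoxD differed by -0.15 and *Smug1* beside HoxC by -0.08.

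**Figure D4:**
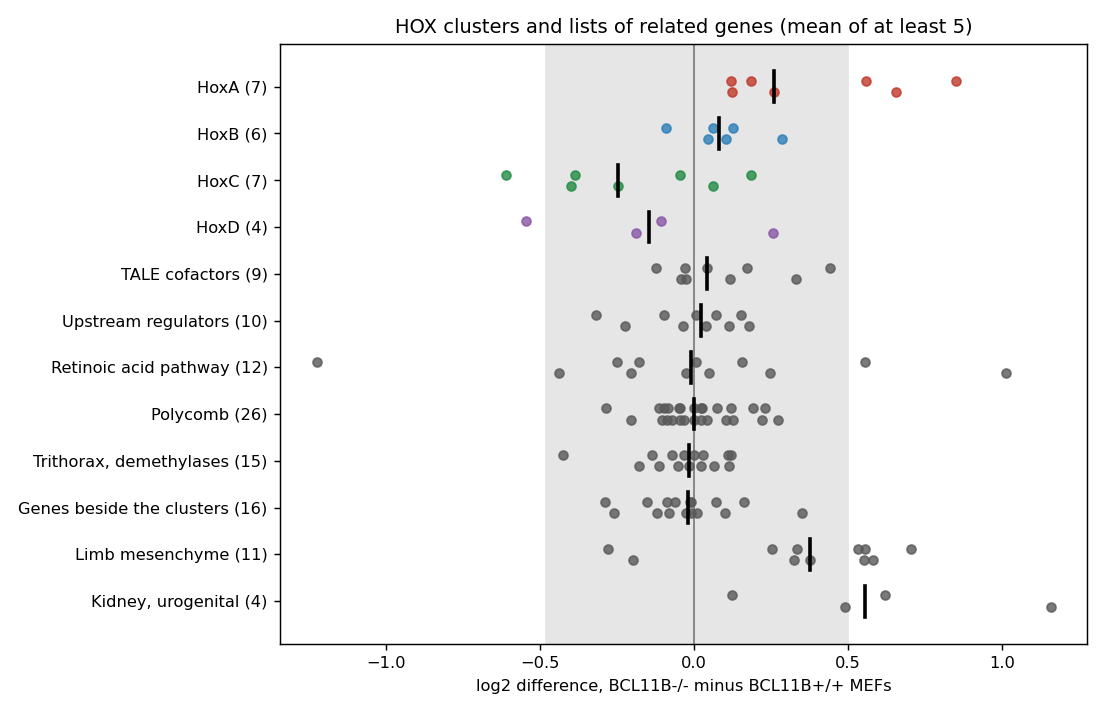
Log2 difference, *BCL11B*-/- minus *BCL11B*+/+ MEFs (horizontal axis), of the HOX clusters and of lists of related genes (vertical axis, number of genes with a mean of at least 5 in brackets), with 1 array per genotype. Points are genes, black bars are medians, and the grey band from -0.48 to 0.50 holds the central 95% of all 12331 genes. HoxA lies to the right of 0 and most of HoxC to the left, while TALE cofactors, Polycomb and trithorax genes stay inside the band.

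Genes outside the clusters that mark body position were read from the same arrays. Of 11 limb mesenchyme genes above the floor only *Msx2* (9.09%, against 1.61% of all genes) was at least 1.5-fold higher. It differed by 0.70, and a second probe set of it was at -0.08. *Meox2* differed by 0.55 on its brightest probe set and by 0.85, past 1.5-fold, on its other. The list's median was 0.38, with 9 genes above 0 and 2 below, *Hand2* (-0.28) and *Emx2* (-0.20). *Tbx5*, a gene of the forelimb, differed by 0.53 and *Tbx4*, a gene of the hindlimb, by 0.58. Their other probe sets differed less, by 0.05 for *Tbx5* and 0.23 for *Tbx4*. Of 4 kidney and urogenital genes above the floor *Foxd1*, a stromal factor, was 2.23-fold higher with values of 7.46 and 8.62. *Eya1* was 1.54-fold higher on its brightest probe set, and its 3 probe sets lay between 0.06 and 0.62. These 2 of 4 genes are 50%, against 1.61% of all genes. The log2 of the summed signal was 11.32 and 11.60 for the limb list and 9.46 and 10.01 for the urogenital list. The share of cells from each body site in the 2 cultures was not measured.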

How the data were processed

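Total RNA was taken from 1 culture of each genotype, and 100 ng was labelled and hybridized to Affymetrix Mouse Genome arrays. The authors reduced the scans with RMA in R (version 3.0.3 per the submitters' processing notes) and deposited background-corrected, normalized log2 values for 45101 probe sets. Normalization makes the arrays' distributions alike, so a global change of mRNA would not be seen, and background pulls differences of dim genes toward 0. The arrays had medians of 5.28 and 5.28 and correlated at 0.995 over probe sets. No genome build was given in the sources used here.

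Names came from GEO's platform annotation. It gave 34958 probe sets a single gene, 932 several and 9211 none, and only the first kind was named. All 33 HOX symbols matched RefSeq by Entrez identifier. HOX genes at 1.5-fold and members whose probe sets disagreed in sign or by over 0.5 log2 units were described in full. Of other lists, members at 1.5-fold and up to 3 highest and 3 lowest were named, and any others after their values were seen. Macrophage, chondrocyte, mesothelial and neural markers were an exception, given as counts and summed signals with only *Gap43* named. The members and lists were chosen with earlier results of these data known. The size rule was run on simulated data whose noise was the SD between probe sets, which holds no variation between cultures. A pass mark was set only for planted differences of at least 2-fold, and all HOX calls here were smaller. Alternatives were other probe set choices, filters, size rules and rankings, a loess fit (span 0.4) and the median subtracted. A planned comparison of homeodomains was not made. Promoter sequences came from RefSeq (GRCm38.p6). Tools were statsmodels 0.14.6 (loess), pandas 2.3.3, numpy 2.4.6 and matplotlib 3.10.9 under Python 3.11.15.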

Additional observations from a re-analysis of the deposited data

How the results depend on the processing

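No paired analysis was possible because each genotype had 1 array, and for the same reason no array could be left out. The count of higher HOX genes fell from 2 to 1 with the mean over all probe sets, with only probe sets that carry no suffix, and with a mean of at least 7. *Hoxa5* is the 1 in each case. *Hoxa3* differed by 0.31 as the mean of its probe sets, by 0.14 without suffixed ones, and has a mean under 7. The count of lower HOX genes went from 1 to 2 with the mean over all probe sets, as *Hoxd8* joined *Hoxc8*. At 1.2-fold 4 genes were higher and 4 lower. At 2-fold there were 0 and 0, since the largest difference, that of *Hoxa5*, was 1.80-fold. The median of HoxD was 0.078 without the filter, which adds dim genes, and -0.55 with a mean of at least 7, which leaves *Hoxd8* alone. The median of retinoic acid genes was -0.21 without suffixed probe sets, and the cause was not tested. By plain difference 0 HOX genes were among the 100 ranked first, since the weight was dropped. The other 78 of 90 alternative counts and medians moved by less than the SD between probe sets or, for counts, by at most 1.5 times. Of 131 alternative values of single genes 127 moved by less than that SD. The others were both values of *Hoxa3*, *Hoxd13* at 0.11 as the mean of its probe sets, and *Hoxa10* at 0 on a dim probe set. The loess fit lay between -0.011 and 0.014 and the median subtracted was 0. Signal over background limits the 9 genes under the floor.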

Other observations

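Probe sets annotated to a pair of HOX genes, and those of antisense transcripts, give readings of the clusters that stand outside the 33 genes. The probe set shared by *Hoxb8* and *Hoxb7* differed by 0.13, on a level of 6.54 in *BCL11B*+/+ and 6.68 in *BCL11B*-/- MEFs, while the probe set of *Hoxb7* alone was under the floor at 3.87 and 4.08. Of the probe sets shared by *Hoxd4* and *Hoxd3*, 1 read 6.47 and 6.30 and the other 4.92 and 4.77, with differences of -0.17 and -0.14, next to -0.19 for *Hoxd3* alone. *Hoxb5os*, an RNA that runs opposite to *Hoxb5* and *Hoxb6*, read 9.21 and 9.12. Its difference of -0.08 lay below those of *Hoxb5* (0.13) and *Hoxb6* (0.28). *Hoxd3os1* differed by -0.24 on its brighter probe set and was equal on both arrays on the other. *Hoxa11os* differed by 0.08 on its brighter probe set, next to 0.12 for *Hoxa11*.

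*Hoxb13* and *Hoxd12* had exactly the same value on both arrays, as did 918 of the 18193 genes on their chosen probe set.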
